A study of Drosophila melanogaster with 14 samples.

Results

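The yellow family genes encode secreted proteins related to the major royal jelly proteins of the honey bee, and many of them are known from the colour and hardening of insect cuticle. Pigment precursors are made from tyrosine: ple (tyrosine hydroxylase) makes DOPA, Ddc (DOPA decarboxylase) makes dopamine, and the products are oxidised to melanins outside the epidermal cells. The founding gene, y (yellow), is needed for black pigment in the larval mouth hooks and denticles and in adult cuticle, while yellow-f and yellow-f2 encode enzymes that convert dopachrome on the way to melanin. The functions of most other members in Drosophila are less well known. The 10 genes described here were chosen by name: y, yellow-b, yellow-c, yellow-d, yellow-d2, yellow-e, yellow-e3, yellow-f, yellow-f2 and yellow-h, of 17558 gene identifiers counted. A further 4 family genes in the files are outside this set. All 10 had an identifier in each of the 14 libraries.

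The libraries were made from poly(A) RNA of whole Drosophila melanogaster mutant for lola (longitudinals lacking), which encodes many isoforms of a BTB zinc finger transcription factor. The lola-F set held 3 mutant libraries of embryos, genotype lola-F stop / Df(2R)ED2076, and 3 control libraries, Wild type / Df(2R)ED2076. The lola-null set held 2 mutant libraries of embryos, lola E76 / Df(2R)ED2076, and 2 control libraries, Wild type / Df(2R)ED2076. The lola-O set held 2 mutant libraries of adults, lola-O / Df(2R)ED2076, and 2 control libraries, Wild type / Df(2R)ED2076. Every animal, control or mutant, thus carried the deficiency Df(2R)ED2076. Embryos of both sets were labelled 15 h after fertilization (collected over 2 h at 25 °C, then developed for 13 h) and were sorted by hand for mCherry. Adults were frozen within 10 h of eclosion, when the cuticle is still darkening. A library was made from a pool of 100 embryos in the lola-F set and of 10 flies in the lola-O set; the sources used here do not give how many lola-null embryos were pooled, the sex of the adults or the allele of y in the stocks.

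The depth was 3326811 to 22629694 gene counts per lola-F library, 4178333 to 7098985 per lola-null library and 10078884 to 15960133 per lola-O library. CPM below is the level scaled to the effective library size within a set, and RPKM is that CPM per kilobase of exon, used where genes are compared with each other. lola, the mutated gene, averaged 180.3 ± 47.9 CPM in lola-F mutants and 298.1 ± 55.1 CPM in their controls (SD, n = 3 each; exact two-sided permutation p = 0.1, the smallest possible). It had 1044 and 369.2 CPM in the lola-null mutants, against 1016 and 1414 CPM in the controls (exact permutation p = 0.667, smallest possible 0.333), so the library labelled lola-null mutant 1 lay within the range of the controls. In lola-O adults it averaged 111.4 ± 2.71 CPM, against 110.9 ± 19.8 CPM in controls (SD, n = 2 each; exact permutation p = 1). A gene count sums all isoforms of lola and need not fall when 1 isoform is lost. Adult marker genes separated adults from embryos: their summed level was 6855 CPM or more in every adult library and 8.70 CPM or less in every embryo library. Flight muscle actin (Act88F), troponin C (TpnC4) and rhodopsin (ninaE) were high in adults, whereas the yolk protein genes Yp1 and Yp2 were at 1.43 CPM or less in all 4 adult libraries. These genes do not check the age of the embryos. Segmentation markers (4 of 5 matched) summed to 40.0 and 47.7 CPM in lola-null controls, against 17.6 to 21.7 CPM in lola-F controls. Of 3 tested between these groups, 1 was called lower in lola-F controls.

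Several members lie next to each other in the genome (BDGP6). yellow-d (2R, 23378573 to 23380438, plus strand) and yellow-d2 (2R, 23381197 to 23382591, plus strand) are 758 bp apart. yellow-f (3R, 12991449 to 12993201, minus strand) and yellow-f2 (3R, 12993395 to 12995147, minus strand) are 193 bp apart. yellow-e3 (3R, 13403423 to 13404870, minus strand) and yellow-e (3R, 13409543 to 13415286, minus strand) flank a further family gene, yellow-e2, 238 bp from yellow-e3 and 2544 bp from yellow-e. No other annotated gene lies between the members of these clusters. The remaining members stand alone: y on X (356509 to 361245, plus strand), yellow-b on 2L (16754336 to 16758283, plus strand), yellow-c on 2L (15035394 to 15037841, plus strand) and yellow-h on 4 (227922 to 230428, plus strand). Of the 10 members, all except yellow-e, yellow-e3 and yellow-f2 overlap 1 annotated gene on the other strand. The sources used here do not give the strand setting of the counting, so reads of such partners cannot be told apart from reads of the member.

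The 3 sets differed in which yellow genes made up the family's transcripts. In controls, the summed level of the 10 genes was 154 to 165 RPKM in the lola-F set, 78.9 to 98.4 RPKM in the lola-null set and 272 to 335 RPKM in adults. In lola-F mutants the sum was 176 to 227 RPKM, above every control of the set. In lola-null mutants it was 78.1 and 93.9 RPKM, overlapping the controls, and in lola-O mutants 247 and 262 RPKM, below both controls.

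**Figure D1:**
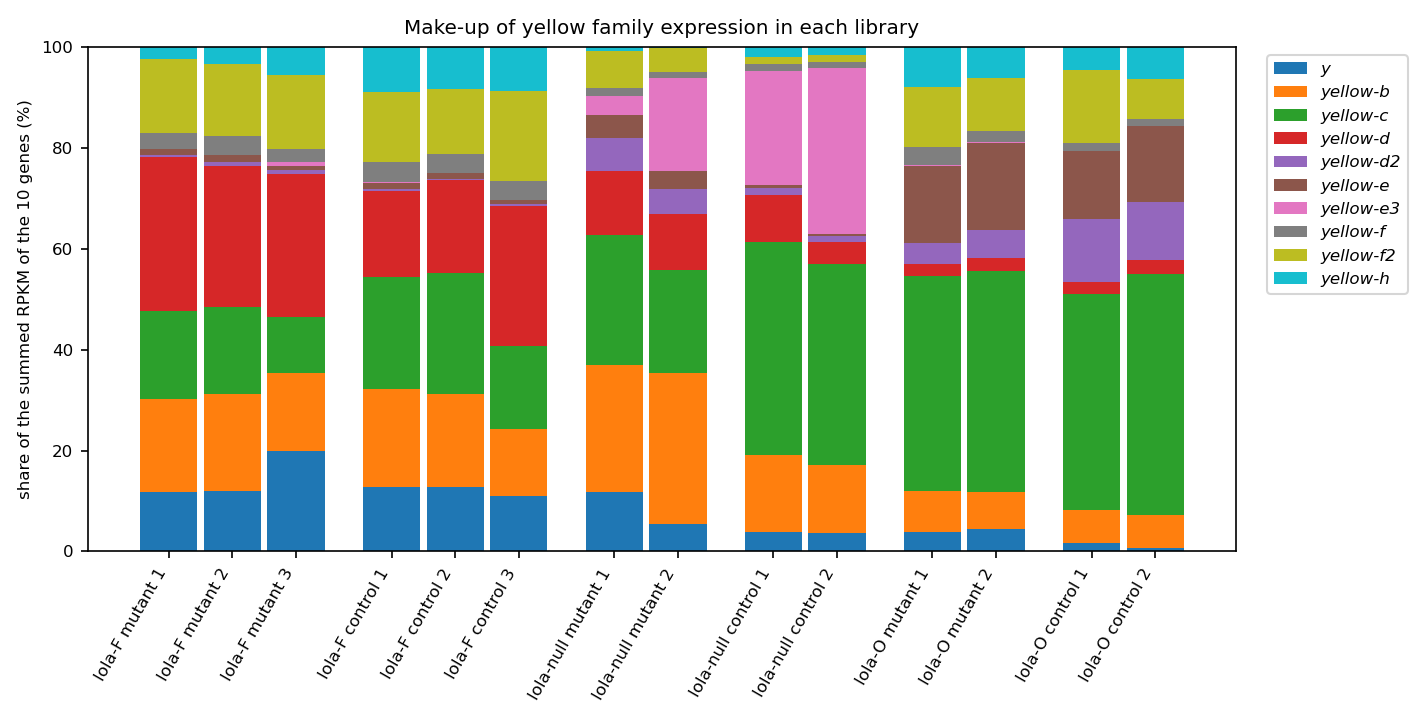
Share of each gene in the summed RPKM of the 10 yellow genes (vertical axis, %) in each of the 14 libraries (horizontal axis), mutants left of their controls. yellow-e3 held 22.6% and 33.0% of the sum in lola-null controls, against at most 0.126% in lola-F controls and at most 0.0269% in adult controls.

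In lola-F controls, yellow-d (33.3 ± 8.34 RPKM, SD, n = 3), yellow-c (33.3 ± 7.29 RPKM) and yellow-b (27.3 ± 5.88 RPKM) were the highest members, and their ranges overlapped from each to the next. yellow-f2 (23.5 ± 3.36 RPKM) overlapped yellow-b and was followed without overlap by y, yellow-h, yellow-f, yellow-e, yellow-d2 and yellow-e3, the last at 0.0882 ± 0.102 RPKM. In lola-null controls, yellow-c (36.5 ± 7.24 RPKM, n = 2) was highest, ahead of yellow-e3 (24.1 ± 2.65 RPKM) and yellow-b (12.9 ± 3.00 RPKM) without overlap. yellow-d and y then overlapped, as did neighbours from yellow-h through yellow-f2 and yellow-d2 to yellow-f, all with means of 1.18 to 1.53 RPKM, and yellow-e was lowest at 0.384 ± 0.124 RPKM. In adult controls, yellow-c stood alone at 136.4 ± 9.24 RPKM (n = 2). yellow-e (42.9 ± 3.12 RPKM), yellow-d2 (36.7 ± 7.29 RPKM), yellow-f2 (34.6 ± 19.01 RPKM) and yellow-b (19.9 ± 3.38 RPKM) each overlapped the next, followed by yellow-h, yellow-d, then yellow-f and y, whose ranges overlapped, and yellow-e3 at 0.0450 ± 0.0637 RPKM.

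**Figure D2:**
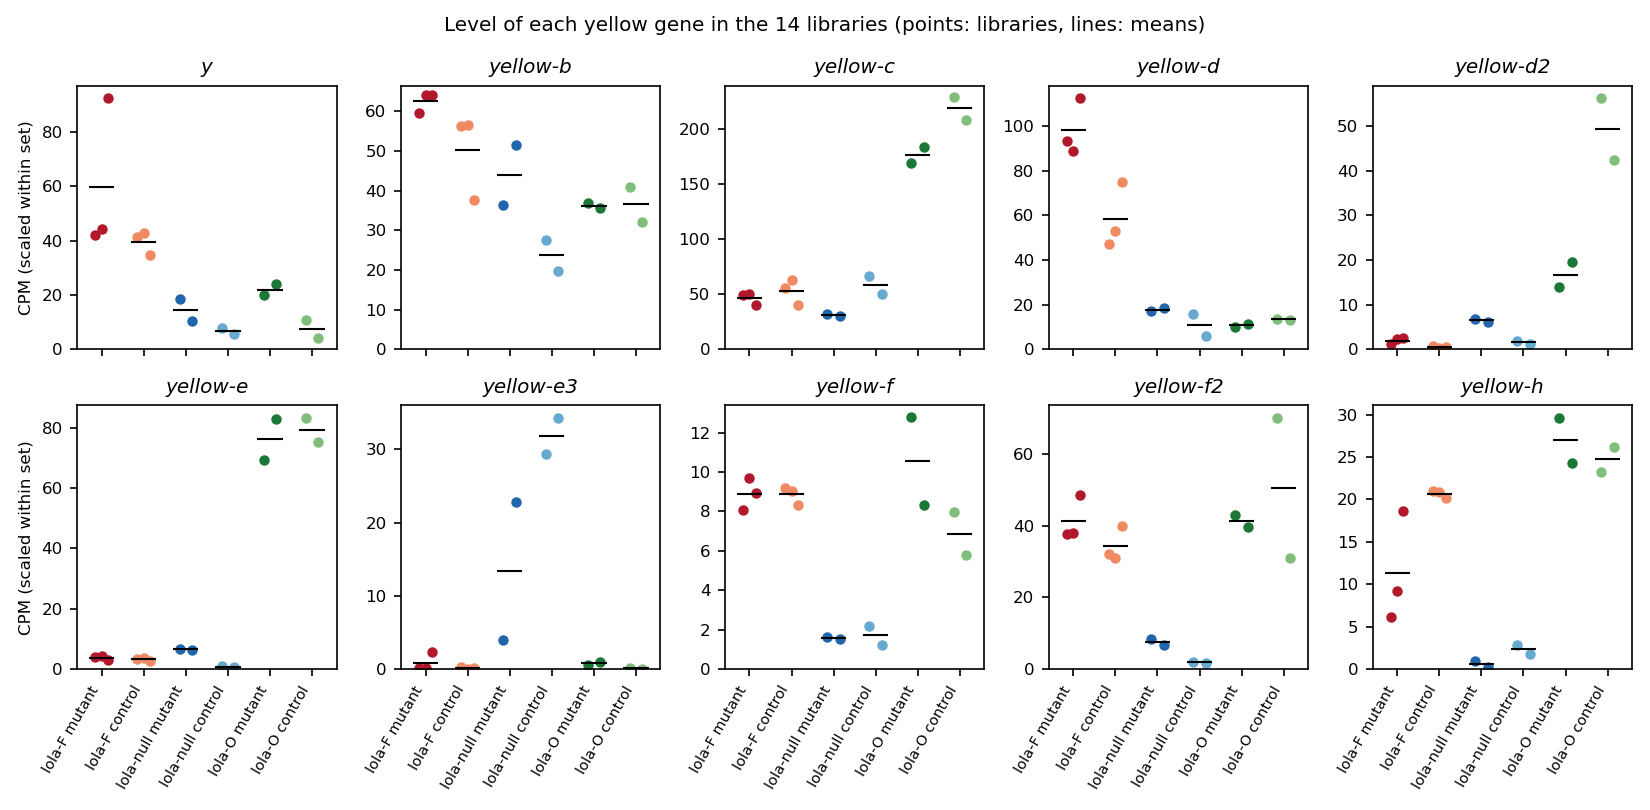
Level of each yellow gene (vertical axis, CPM scaled within a set, from 0) in the 14 libraries, grouped by set with mutants left of controls; points are libraries and lines are group means. yellow-d2 lay above its controls in every mutant embryo library and below its controls in both lola-O adult libraries.

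The comparison of lola-F mutant with control embryos asks which genes respond to loss of the F isoform. None of the 9 members tested passed there in edgeR's quasi-likelihood test, with p-values adjusted over all genes by Benjamini-Hochberg at 0.05. Of all 10191 genes tested 7.06% passed, 3.33% higher and 3.73% lower. Of the members, 2 had an unadjusted p under 0.05 in edgeR. With RLE scaling, 3142 of the 10191 genes had an unadjusted p under 0.05 in edgeR, a different fit from that of the member count. DESeq2 called 2 members, and over all 10191 genes it passed 810 as higher and 1112 as lower. The median log2 fold change was 0.27 over the 9 members and 0.02 over all genes. yellow-b, yellow-d and yellow-d2 were higher in all 3 mutant libraries than in any control, and yellow-h was lower in all 3, but these differences did not pass. The share of all genes whose groups separate in this way was not counted.

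Of the pigment genes proper, y had 42.0, 44.4 and 92.3 CPM in lola-F mutants, against 41.3, 42.8 and 34.5 CPM in controls. Only mutant 3 stood well apart from the controls, and the groups overlapped (log2 fold change 0.60 ± 0.31 SE, adjusted p = 0.229). The dopachrome conversion gene yellow-f2 had 37.7, 38.0 and 48.6 CPM in mutants, against 32.1, 31.0 and 40.0 CPM in controls (log2 0.27 ± 0.17, adjusted p = 0.317). Its neighbour yellow-f had 8.08, 9.70 and 8.95 CPM in mutants, against 9.20, 9.06 and 8.35 CPM in controls (log2 0.01 ± 0.18, adjusted p = 0.978). Both groups overlapped for each of these dopachrome genes.

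The adjacent pair yellow-d and yellow-d2 came closest to the threshold. yellow-d had 93.5, 88.8 and 112.6 CPM in lola-F mutants, against 47.1, 53.1 and 74.8 CPM in controls (log2 0.75 ± 0.21, adjusted p = 0.0641). yellow-d2, which was scarce at this stage, had 1.17, 2.36 and 2.46 CPM in mutants, against 0.789, 0.407 and 0.603 CPM in controls (log2 1.81 ± 0.45, adjusted p = 0.0535). Every mutant library exceeded every control for both genes. DESeq2 called both (adjusted p = 0.0114 and 0.0464), as did upper quartile scaling (0.0297 and 0.0357), and over 13 alternatives the adjusted p ran from 0.0114 to 0.179 for yellow-d and from 0.0289 to 0.150 for yellow-d2.

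yellow-h had 6.11, 9.21 and 18.6 CPM in lola-F mutants, against 21.03, 20.9 and 20.2 CPM in controls. The 3 mutant libraries were spread widely below a narrow range of controls (log2 −0.85 ± 0.37, adjusted p = 0.163), and without mutant 3 the difference was −1.41 and passed (adjusted p = 0.0276, in a range of 0.0276 to 0.326 over 13 alternatives). yellow-b had 59.7, 64.2 and 64.2 CPM in mutants, against 56.3, 56.6 and 37.7 CPM in controls (log2 0.32 ± 0.18, adjusted p = 0.266). yellow-c (log2 −0.19 ± 0.20, adjusted p = 0.530) and yellow-e (log2 0.20 ± 0.28, adjusted p = 0.651) overlapped between groups, at 39.9 to 50.1 CPM in mutants against 40.4 to 63.2 CPM in controls and at 3.09 to 4.24 CPM against 2.58 to 3.77 CPM. yellow-e3 was not tested: it had 1, 2 and 45 counts in the mutants, against 1, 0 and 1 counts in the controls, so the ratio of 14.2 between summed levels (95% interval 3.74 to 121, counting error only) rested on mutant 3.

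**Figure D3:**
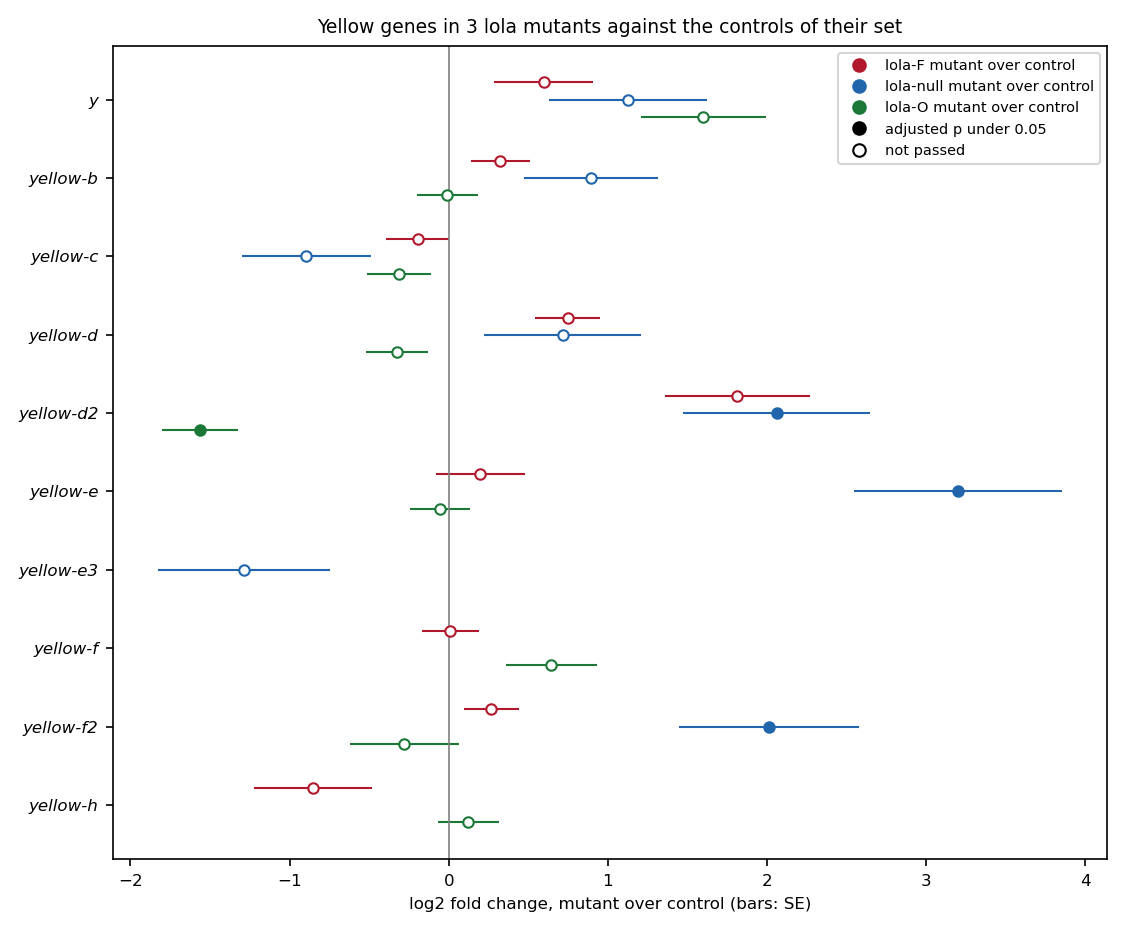
Log2 fold change of each yellow gene, mutant over control of the same set, with its standard error (horizontal axis) for the lola-F, lola-null and lola-O comparisons; filled points passed an adjusted p of 0.05 and open points did not, and genes with no point were not tested. The filled points are yellow-d2, yellow-e and yellow-f2 in lola-null embryos, to the right of 0, and yellow-d2 in lola-O adults, to the left.

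The comparison of lola-null mutant with control embryos asks the same of embryos lacking lola function. Of 8 members tested, 3 rose (yellow-e, yellow-d2 and yellow-f2), none fell and 5 did not pass, whereas 16.9% of 9288 genes passed, 7.42% higher and 9.49% lower. Of the 5, yellow-c and yellow-e3 had negative fold changes in all 11 alternatives. The median log2 fold change was 1.01 over the 8 members and 0.09 over all genes. In these whole-animal libraries, a change in the number of cells of a type cannot be told apart from a change in RNA per cell.

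yellow-e rose most. It had 6.72 and 6.16 CPM in lola-null mutants, against 0.870 and 0.547 CPM in controls (9.19-fold, log2 3.20 ± 0.65, adjusted p = 0.000593). In the silkworm yellow-e is known from the colour of the larval head and tail. The counts behind it were low, 65 in the mutants against 8 in the controls, and without control 2 it did not pass (adjusted p = 0.115); over 11 alternatives the log2 fold change stayed between 2.85 and 3.49.

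yellow-f2 had 8.36 and 6.68 CPM in lola-null mutants, against 1.96 and 1.78 CPM in controls (4.03-fold, log2 2.01 ± 0.57, adjusted p = 0.0116). Its neighbour yellow-f had 1.64 and 1.54 CPM in mutants, against 2.18 and 1.23 CPM in controls, and was too low to be tested. Per length, the ratio of yellow-f2 to yellow-f was 4.64 ± 0.534 in lola-null mutants and 1.15 ± 0.379 in their controls (SD, n = 2 each), without overlap. These values rest on few counts: yellow-f had 10 and 6 in the mutants and 10 and 9 in the controls. yellow-f2 had 9 and 13 counts in those controls. The ratio was 4.60 ± 0.744 in lola-F mutants and 3.83 ± 0.758 in lola-F controls (n = 3 each), with overlap.

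yellow-d2 had 6.88 and 6.16 CPM in lola-null mutants, against 1.96 and 1.23 CPM in controls (4.17-fold, log2 2.06 ± 0.59, adjusted p = 0.0126). Its neighbour yellow-d had 17.2 and 18.5 CPM in mutants, against 15.9 and 6.15 CPM in controls (log2 0.72 ± 0.49, adjusted p = 0.360). Both mutant libraries were above both controls for each gene of the pair. The calls of yellow-d2 and yellow-f2 depended on single libraries. Without control 1 the adjusted p was 0.147 for yellow-d2 and 0.214 for yellow-f2, without control 2 it was 0.470 and 0.342, and without the library labelled lola-null mutant 1 it was 0.0577 and 0.0656. Their direction held in all 11 alternatives.

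Among the members that did not pass, y had 18.7 and 10.5 CPM in lola-null mutants, against 7.83 and 5.74 CPM in controls (log2 1.13 ± 0.50, adjusted p = 0.133). yellow-b had 36.4 and 51.6 CPM in mutants, against 27.6 and 19.8 CPM in controls (log2 0.89 ± 0.42, adjusted p = 0.165). yellow-c had 32.1 and 30.6 CPM in mutants, against 66.5 and 50.2 CPM in controls (log2 −0.89 ± 0.41, adjusted p = 0.145). In the 7 alternatives that kept all libraries, yellow-c passed as lower in 2 (log2 −1.16 to −0.85), and y and yellow-b passed in 0. The groups did not overlap for these 3 genes, and the share of all genes without overlap was not counted. yellow-e3, the second highest member per length in the lola-null controls, had 3.93 and 22.9 CPM in mutants, against 29.4 and 34.3 CPM in controls (log2 −1.28 ± 0.54, adjusted p = 0.110). The low value was that of the library labelled lola-null mutant 1, whose lola level lay within the control range. Without mutant 2 the log2 fold change of yellow-e3 was −2.99, in a range of −2.99 to −0.59 over 11 alternatives. In the 7 alternatives that kept all libraries, yellow-e3 passed as lower in 3 (log2 −1.73 to −1.15). With the length trend removed, yellow-c and yellow-e3 both passed as lower. yellow-h, at 0.983 and 0.257 CPM in mutants against 2.83 and 1.78 CPM in controls, was not tested.

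Genes of the same pathway and of the tissues that express it were counted beside the family. Of 9 pigmentation and hardening genes tested in the lola-null comparison, 3 rose and none fell, against 7.42% and 9.49% of all genes. The 3 were Ddc (log2 4.41 ± 0.70, adjusted p = 2.46e-05), the beta-alanine synthesis gene b (log2 3.40 ± 0.72, adjusted p = 0.000938) and amd (log2 1.55 ± 0.45, adjusted p = 0.0146). Ddc and b were scarce in the controls, where 3 counts stand for 0.652 and 0.410 CPM. Ddc had 0.273 and 1.31 CPM in controls, against 8.99 and 21.6 CPM in mutants. For b the values were 0.273 and 0.652 CPM, against 3.93 and 5.65 CPM. The list's median log2 fold change was 0.35 there, against 0.09 over all genes. In lola-F embryos ple fell (log2 −1.85 ± 0.30, adjusted p = 0.0247) and the other 7 tested did not pass. The list's median was −0.24 there, against 0.02 over all genes, of which 3.73% passed as lower. In lola-O adults none of 10 passed, with a median of −0.17, against 0.01 over all genes. The adult controls differed widely between themselves: the list summed to 2963 and 1154 CPM in controls, against 1365 and 1227 CPM in mutants. Of the denticle and trichome genes, which shape the epidermal cells that carry y-dependent pigment, ovo fell in lola-F embryos (1 of 8 tested; log2 −0.94 ± 0.22, adjusted p = 0.0460). In lola-null embryos 3 of 11 fell, against 9.49% of all genes: ovo (log2 −3.25 ± 0.46, adjusted p = 4.25e-06), sn (log2 −2.30 ± 0.45, adjusted p = 0.000404) and sha (log2 −1.78 ± 0.42, adjusted p = 0.00246). None of 10 passed in lola-O adults.

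**Figure D4:**
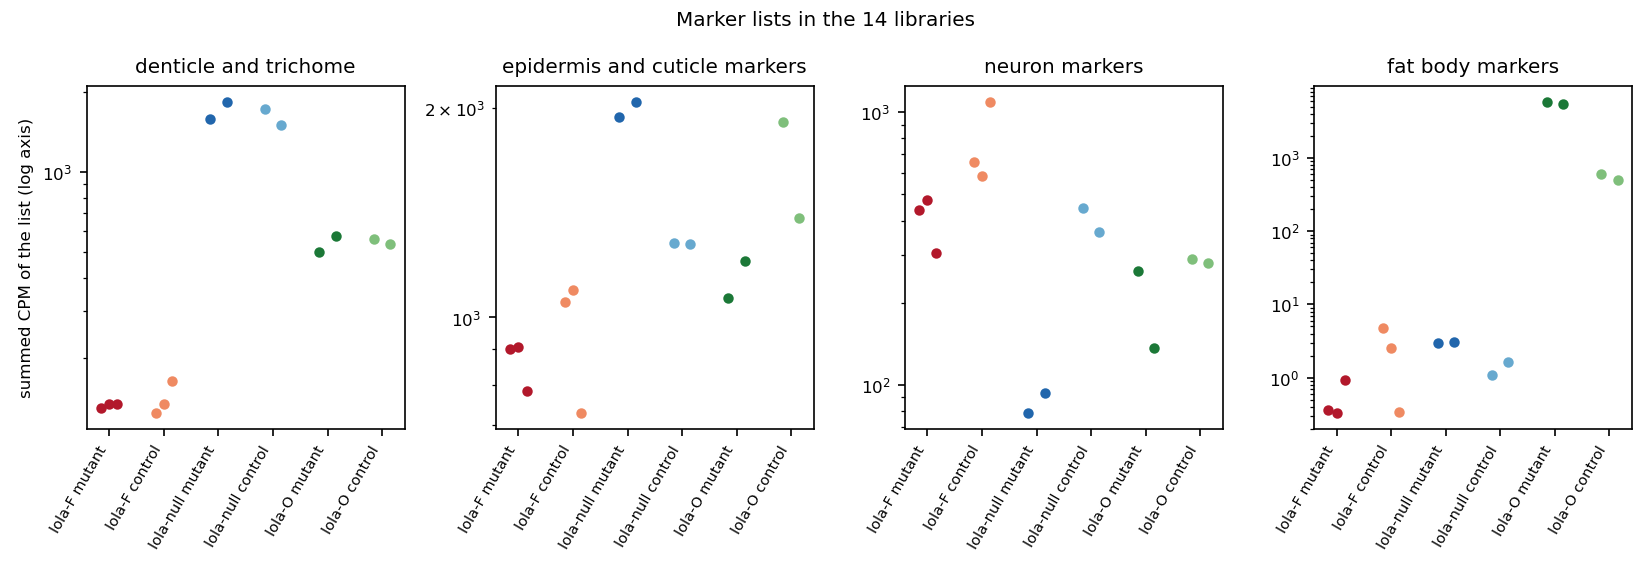
Summed CPM (vertical axes, log scale) of denticle and trichome genes and of markers of epidermis and its cuticle, neurons and fat body in the 14 libraries, mutants left of controls. Neuron markers were lower in both lola-null mutants (78.7 and 93.5 CPM) than in their controls (364.7 and 444.3 CPM). Fat body markers were higher in both lola-O mutants (5358 and 5871 CPM) than in their controls (499.5 and 609.2 CPM). Most of the fat body sum in the lola-O mutants was Lsp2 (4892 and 5393 CPM).

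Marker lists of other tissues were summed in the same libraries. In lola-null embryos the summed level of 6 epidermis and cuticle markers was 1944 and 2044 CPM in mutants, against 1274 and 1280 CPM in controls. Most of that difference was verm, at 1243 and 1276 CPM in mutants, against 650.2 and 668.7 CPM in controls. None of the 6 passed as higher and 1, grh, fell (log2 −2.25 ± 0.42, adjusted p = 0.000238). All 4 neuron markers (elav, nSyb, Syt1, brp) fell in the lola-null mutants. In the lola-F set neuron markers summed to 303.6 to 477.4 CPM in mutants, against 581.7 to 1092 CPM in controls, with 1 of 4 called lower, and epidermis markers to 782.8 to 907.2 CPM in mutants, against 728.1 to 1094 CPM in controls, with none of 6 called. Crystal cell markers (2 of 3 matched), of blood cells that melanise wounds, summed to 330.0 and 572.3 CPM in lola-null mutants, against 212.7 and 230.7 CPM in controls. That sum was nearly all PPO2, a prophenoloxidase gene, which did not pass (adjusted p = 0.156), and lz was not tested. The part of these tissues in the levels of the yellow genes was not tested.

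The difference between the lola-null and the lola-F effect was tested itself as an interaction over all 10 embryo libraries. Of 10 members tested, 2 passed as higher, yellow-e (log2 difference 3.24 ± 0.58, adjusted p = 0.00821) and yellow-f2 (log2 difference 2.00 ± 0.37, adjusted p = 0.00972). Of all 10848 genes 8.59% passed, 6.90% as higher and 1.69% as lower. The median over all genes was 0.31. The yellow-e call was lost without lola-null control 2 (adjusted p = 0.0674) and held in the other 16 alternatives. The yellow-f2 call held in 11 of 17, with an adjusted p of 0.00424 to 0.104. It was lost with all 14 libraries in 1 fit, without the filter on low counts, and without lola-F mutant 1, lola-F mutant 2, lola-F control 3 or lola-null control 2. For the other 5 members tested in both sets the interaction did not pass: 0.81 ± 0.57 for y (adjusted p = 0.413), 0.80 ± 0.36 for yellow-b (0.203), −0.46 ± 0.37 for yellow-c (0.484), 0.21 ± 0.49 for yellow-d (0.843) and 0.50 ± 0.72 for yellow-d2 (0.721). The members tested in only 1 set alone did not pass either. They were yellow-e3 (−4.46 ± 1.83, 0.164), yellow-f (0.18 ± 0.49, 0.862) and yellow-h (−0.57 ± 0.83, 0.723). The interaction compares mutants of different sets, so the allele and the set cannot be told apart.

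The comparison of lola-O mutant with control adults asks which genes respond to loss of the O isoform shortly after eclosion. Of 9 members tested, yellow-d2 fell and the other 8 did not pass, whereas 0.558% of 12906 genes passed, 0.225% lower and 0.333% higher. The median log2 fold change was −0.05 over the 9 members and 0.01 over all genes.

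yellow-d2 had 13.9 and 19.5 CPM in lola-O mutants, against 56.2 and 42.4 CPM in controls (2.95-fold lower, log2 −1.56 ± 0.24, adjusted p = 0.0422). Both mutants were far below both controls. The call was lost with all 14 libraries in 1 fit (adjusted p = 0.0921) and without control 1 (0.181), control 2 (0.0594) or mutant 1 (0.0543), and over 11 alternatives the log2 fold change stayed between −1.82 and −1.35. yellow-d, 758 bp upstream, had 10.1 and 11.5 CPM in mutants, against 13.8 and 13.2 CPM in controls (log2 −0.32 ± 0.20, adjusted p = 0.469). Per length, the ratio of yellow-d to yellow-d2 was 0.503 ± 0.0743 in lola-O mutants and 0.213 ± 0.0360 in their controls (SD, n = 2 each), without overlap.

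y had 19.9 and 24.0 CPM in lola-O mutants, against 10.8 and 4.11 CPM in controls. Both mutants exceeded both controls, which differed among themselves (3.03-fold, log2 1.60 ± 0.39, adjusted p = 0.122). The difference passed with DESeq2 (adjusted p = 0.0141), without the filter on low counts (0.0219), with the replicate numbers as a block (0.0146) and without mutant 2 (0.0394), in a range of 0.0141 to 0.194 over 11 alternatives.

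Of the dopachrome conversion genes, yellow-f had 12.8 and 8.35 CPM in lola-O mutants, against 7.96 and 5.77 CPM in controls (log2 0.65 ± 0.29, adjusted p = 0.323). yellow-f2 had 43.1 and 39.8 CPM in mutants, between the 70.2 and 30.9 CPM of the controls (log2 −0.28 ± 0.34, adjusted p = 0.750). The ratio of yellow-f2 to yellow-f per length was 3.999 ± 0.970 in mutants and 6.97 ± 2.42 in controls (SD, n = 2 each), without overlap.

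yellow-c, the highest member in adults, had 168.5 and 183.6 CPM in lola-O mutants, against 228.7 and 207.8 CPM in controls (log2 −0.31 ± 0.20, adjusted p = 0.499). yellow-e had 69.4 and 83.0 CPM in mutants, against 83.2 and 75.1 CPM in controls (log2 −0.05 ± 0.19, adjusted p = 0.918). The mutants lay below both controls for yellow-c and overlapped them for yellow-e. yellow-b (log2 −0.01 ± 0.19) and yellow-h (log2 0.12 ± 0.19, adjusted p = 0.805) also overlapped, at 35.6 to 37.0 CPM in mutants against 32.2 to 41.0 CPM in controls and at 24.3 to 29.6 CPM against 23.3 to 26.2 CPM. yellow-e3 had 9 and 12 counts in the mutants, against 1 and 0 counts in the controls, a ratio of summed levels of 16.3 (95% interval 2.62 to 674, counting error only), and was not tested.

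Fat body markers summed to 5358 and 5871 CPM in lola-O mutants, against 499.5 and 609.2 CPM in controls, with 1 of the 3, the larval serum protein gene Lsp2, called higher (log2 3.82 ± 0.40, adjusted p = 0.0160). Lsp2 alone had 4892 and 5393 CPM in mutants, against 333.0 and 395.0 CPM in controls. Lsp1alpha (59.5 and 62.8 against 12.3 and 25.8 CPM) and Fbp1 (403.4 and 418.8 against 154.2 and 188.5 CPM) were higher too and did not pass. The yolk protein gene Yp3 averaged 223.8 ± 83.1 CPM in mutants and 10.9 ± 3.52 CPM in controls (SD, n = 2 each; log2 4.37 ± 0.36, adjusted p = 0.00774). Epidermis and cuticle markers summed to 1068 and 1207 CPM in mutants, against 1390 and 1913 CPM in controls, and none of the 6 passed. Whether these values bear on yellow-d2 or y was not tested.

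The control groups of the 3 sets were compared to describe the members across stages. These comparisons share control libraries with each other and with the mutant comparisons, and set, preparation and stage cannot be told apart in them. Of 9 members tested between lola-O adult controls and lola-F embryo controls, 4 were higher in adults and 2 lower, against 40.1% and 26.4% of 12902 genes (66.6% in all). Of 10 between lola-O adult controls and lola-null embryo controls, 8 were higher and 1 lower, against 47.9% and 32.1% of 12620 genes (80.0% in all). Of 9 between lola-F and lola-null embryo controls, 7 were higher in lola-F controls and 1 lower, against 35.8% and 34.5% of 10501 genes. Both embryo control groups carry the same age and genotype on their labels, yet 70.3% of genes differed between them. The median log2 difference over all genes was 0.19, 0.50 and 0.02 in these comparisons in the order given, and with length trends removed it was −0.10, −0.27 and −0.08; single differences are read against these medians.

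Apart from yellow-e3, the largest fitted differences from both embryo groups were those of yellow-e and yellow-d2. yellow-e had 83.2 and 75.1 CPM in adult controls, against 2.58 to 3.77 CPM in lola-F controls (log2 4.85 ± 0.23, adjusted p = 1.23e-06) and 0.547 and 0.870 CPM in lola-null controls (log2 7.31 ± 0.40, adjusted p = 6.25e-15). yellow-d2 had 56.2 and 42.4 CPM in adult controls, against 0.407 to 0.789 CPM in lola-F controls (log2 6.66 ± 0.28, adjusted p = 8.57e-07) and 1.23 and 1.96 CPM in lola-null controls (log2 5.46 ± 0.38, adjusted p = 6.16e-13). yellow-c was also higher in adults than in either embryo group, by 2.27 ± 0.23 over lola-F controls (adjusted p = 5.20e-05) and 2.38 ± 0.28 over lola-null controls (adjusted p = 1.36e-08) on the log2 scale. All of these calls held in every alternative run.

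y and yellow-d ran the other way against the lola-F embryos. y was lower in adult controls than in lola-F controls (log2 −2.22 ± 0.37, adjusted p = 0.000897), at 10.8 and 4.11 CPM against 34.5 to 42.8 CPM. yellow-d was lower too (log2 −1.87 ± 0.24, adjusted p = 0.000221), at 13.8 and 13.2 CPM against 47.1 to 74.8 CPM. Against lola-null controls, y did not pass (log2 0.59 ± 0.41, adjusted p = 0.193), and yellow-d passed (log2 0.81 ± 0.36, adjusted p = 0.0453) but turned to −0.19 with the length trend removed and was called in 3 of 10 alternatives. The adjacent pair stood in opposite order in embryo and adult controls. Per length, yellow-d was 80.2 ± 30.0 times yellow-d2 in lola-F controls (n = 3) and 5.02 ± 1.69 times in lola-null controls (n = 2), but 0.213 ± 0.0360 times in adult controls (n = 2). The embryo ratios rest on few yellow-d2 counts: 3, 4 and 7 in lola-F controls and 9 and 9 in lola-null controls.

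**Figure D5:**
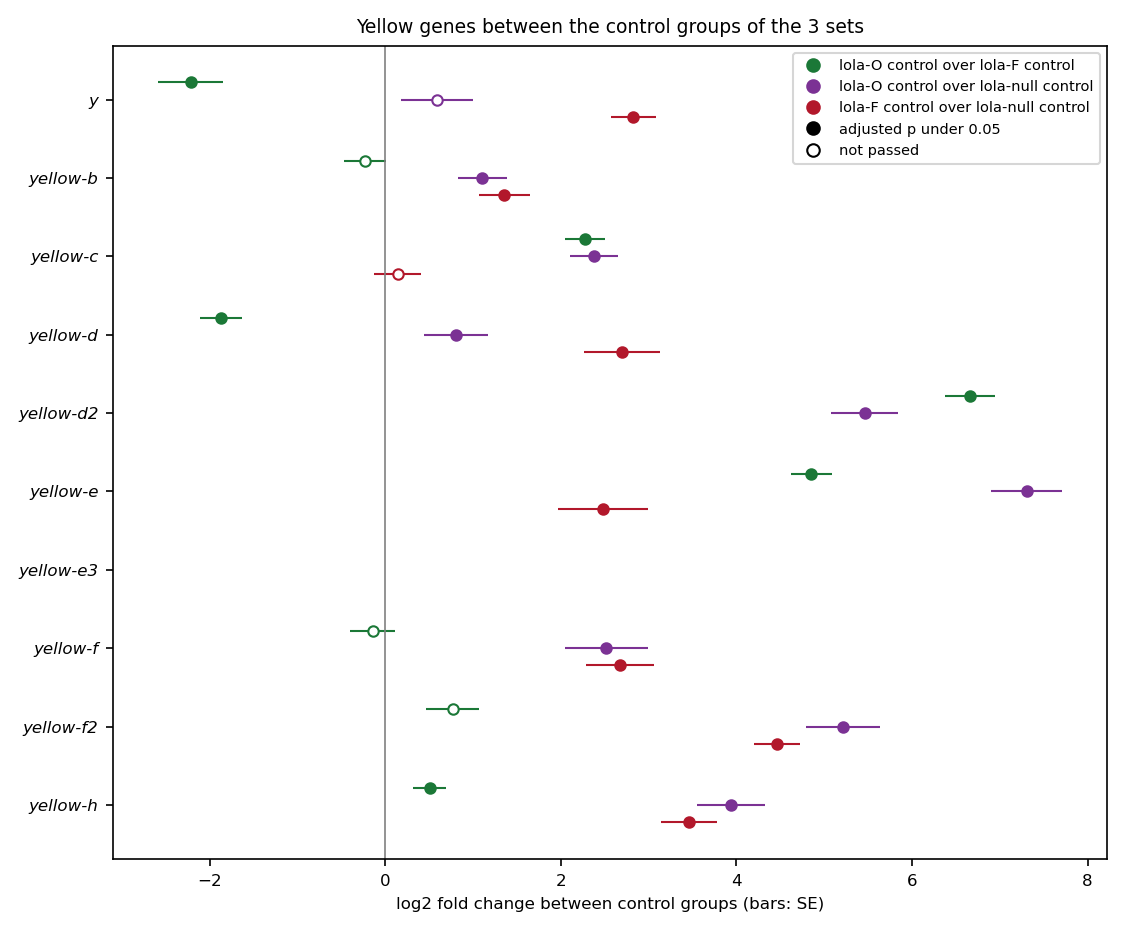
Log2 fold change of each yellow gene between control groups, with its standard error (horizontal axis), for lola-O adult over lola-F embryo controls, lola-O adult over lola-null embryo controls and lola-F over lola-null embryo controls; filled points passed an adjusted p of 0.05. yellow-e3 has no points because its counts were 2 or fewer in the lola-F and in the adult controls, and yellow-d2 was not tested between the embryo groups.

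Between the embryo control groups, the dopachrome gene yellow-f2 had the largest fitted difference among the 7 members that were higher in lola-F controls: 31.0 to 40.0 CPM in lola-F controls, against 1.78 and 1.96 CPM in lola-null controls (log2 4.46 ± 0.26, adjusted p = 1.00e-05). yellow-h followed (log2 3.46 ± 0.32, adjusted p = 6.18e-05), then y (2.82 ± 0.26, 5.72e-05), yellow-d (2.70 ± 0.43, 0.000998), yellow-f (2.67 ± 0.39, 0.000610), yellow-e (2.48 ± 0.51, 0.00347) and yellow-b (1.36 ± 0.29, 0.00412). yellow-c overlapped, at 40.4 to 63.2 CPM in lola-F controls against 50.2 and 66.5 CPM in lola-null controls, and did not pass (log2 0.14 ± 0.27, adjusted p = 0.658). yellow-e3 was lower in lola-F controls: it had 2 counts over the 3 lola-F controls and 1 over the adult controls, against 386 over the 2 lola-null controls. With the compared libraries scaled jointly, the log2 difference was −8.10 ± 0.57 for lola-F against lola-null controls (adjusted p = 1.84e-05) and −8.66 to −7.37 over 11 alternatives. For adult against lola-null controls it was −8.63 ± 0.62 (adjusted p = 1.20e-12) and −10.85 to −7.50 over 10 alternatives. With levels scaled within each set, the summed level in lola-null controls was 409 times that in lola-F controls (95% interval 112 to 3387, counting error only) and 722 times that in adult controls (129 to 28580). All of these values rest on the 2 counts and the 1 count. Between the embryo controls, 10 of 11 denticle and trichome genes tested were lower in lola-F controls, against 34.5% of all genes. The denticle and trichome list summed to 123.6 to 163.9 CPM in lola-F controls, against 1493 and 1719 CPM in lola-null controls. Of 8 pigmentation and hardening genes tested, 3 were higher and 2 lower in lola-F controls, against 35.8% and 34.5% of all genes.

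Of the remaining members, yellow-f2 (log2 5.21 ± 0.42, adjusted p = 9.82e-12), yellow-h (3.94 ± 0.38, 5.08e-10), yellow-f (2.52 ± 0.47, 2.27e-05) and yellow-b (1.10 ± 0.28, 0.000831) were higher in adult than in lola-null controls, yellow-b without a call with the length trend removed (log2 0.18, adjusted p = 0.545). Against lola-F controls only yellow-h passed among these 4 (log2 0.50 ± 0.19, adjusted p = 0.0440), in 2 of 11 alternatives, with −0.048 when the length trend was removed. yellow-f2 (0.77 ± 0.30, 0.0519), yellow-b (−0.23 ± 0.24, 0.428) and yellow-f (−0.14 ± 0.26, 0.646) did not pass.

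Likeness of pattern is given as Pearson's r of log2(CPM + 0.5) across the 14 libraries, which differ mainly by set and stage, as a description with no test. yellow-f ran with yellow-f2 (r = 0.924) and with yellow-h (0.916), yellow-d2 with yellow-e (0.895), yellow-c with yellow-e (0.852) and y with yellow-d (0.847). yellow-e3 ran opposite to yellow-f2 (r = −0.891). Among 12611 other genes at a mean of 1 CPM or more, the nearest patterns to yellow-e were those of the cuticle protein genes Cpr97Ea (r = 0.995) and Cpr92F (0.991), to yellow-f2 those of the mucin-related gene Mur18B (0.993), bumpel and Swim, and to yellow-d those of bigmax (0.989) and the proton pump genes ATP6AP2 (0.980) and VhaPPA1-1 (0.979). The nearest to yellow-c was MCPH1 (0.986), to yellow-d2 the heme oxygenase gene Ho (0.967) and to yellow-e3 yin (0.982). The nearest to y was CG31664 (0.959), to yellow-b CG11191 (0.953), to yellow-f CG7916 (0.986) and to yellow-h CG43103 (0.969).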

How the data were processed

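The authors aligned reads of directional libraries with STAR 2.5.0c to BDGP6 and counted them per gene with HTSeq 0.6.1p1, per the submitters' processing notes. The sources used here do not give the annotation release, the strand setting or the meaning of "filtered" in the embryo files. The deposited values are raw gene counts, 1 file per library. Reads in the summary rows, which belong to no single gene (6.32% to 9.41% of reads, but 66.7% in lola-F control 1 and 18.6% to 44.5% in the lola-null set) stayed out of library sizes and tests. Of 17558 identifiers, 17252 were found in the BDGP6.54 annotation, the source of symbols, positions and exonic lengths, and 306 were not; 1 of these, FBgn0005630, was taken to be an older identifier of lola on general knowledge, since no table used here pairs them. The lola-null files list 17387 identifiers.

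Each comparison was fitted on the whole table in R 4.3.3 with edgeR 4.0.16 (filterByExpr, TMM scaling, quasi-likelihood F test, Benjamini-Hochberg adjustment at 0.05). SE was obtained as the log2 fold change over the root of F. CPM and RPKM were computed here from the deposited counts with the scaling of each set, so levels set across sets are not scaled together, whereas the tests between sets scale their libraries jointly. The test was checked on simulated counts. Alternatives were DESeq2 1.42.0, RLE or upper quartile scaling, no filter, removal of each library's trend with exonic length, all 14 libraries in 1 fit, a replicate block and leaving out each library. Deviations of same-numbered libraries from their group means correlated at r = −0.15 to −0.04 in the lola-F set. The values were −0.25 in the lola-null set and 0.09 in the lola-O set. Numbers were not used as pairs in any set.

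All 10 genes are named whatever their test; of the pigmentation and denticle lists, up to 3 called genes with the smallest p are named, and up to 3 genes nearest in pattern. The marker genes given with a test (grh, Lsp2, Yp3) were picked after their values were seen. The members and lists were chosen with earlier results of these data known. Of the pigmentation list (Pu, ple, Ddc, amd, e, t, b, speck, stw, PPO1, PPO2, PPO3, svr) 10 of 13 matched, and of the denticle and trichome list (ovo, sha, mwh, f, sn, m, dyl, dy, tyn, nyo, neo, emp) 11 of 12. No libraries of a group agreed within counting noise (chi-square over its degrees of freedom 3.08 to 85.4). The labels do not say whether replicates are separate collections, so the p-values speak only of the spread between these samples, and that spread may be technical. Intervals cover counting error only.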

Additional observations from a re-analysis of the deposited data

Results flagged for a closer look

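The effect of the mutation differed between the embryo sets by a test of the difference itself for yellow-e (lola-null minus lola-F effect, log2 3.24) and yellow-f2 (log2 2.00). For 3 further members every mutant library of 1 set lay on the opposite side of its controls from every mutant library of another set, and these differences were not tested. Such separation was not counted over all genes. With 2 libraries in each group, the smallest possible exact two-sided permutation p is 0.333. yellow-d had a log2 fold change of 0.75 in lola-F embryos and 0.72 in lola-null embryos, with every mutant above its controls, and −0.32 in lola-O adults, with both mutants below. It passed in none of these comparisons (edgeR adjusted p = 0.0641, 0.360 and 0.469). yellow-d2 had 1.81 in lola-F embryos and 2.06 in lola-null embryos, and −1.56 in lola-O adults. yellow-e3 had −1.28 in lola-null embryos, while the ratio of its summed levels in lola-O adults was 4.03 on the log2 scale, from 21 counts against 1. Stage and allele cannot be told apart in the comparisons of embryos with adults.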

How the results depend on the processing

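Of 721 values of single yellow genes under alternatives, 694 kept their direction. In lola-F embryos 0 members were called, with 1 in a joint fit of all 14 libraries, 2 with DESeq2, 2 with upper quartile scaling and 0 to 1 when a library was left out. Over all genes, 339 were higher and 380 lower there, and none passed in edgeR without mutant 1, mutant 2, control 1 or control 2 or with the replicate block, with 2277 to 2874 genes at an unadjusted p under 0.05 in these fits; with 6 libraries, DESeq2 passed 810 genes as higher and 1112 as lower. In lola-null embryos 3 members were called, with 5 when the length trend was removed and 0 to 5 when a library was left out. In lola-O adults 1 was called, with 0 in the joint fit, 2 with DESeq2, 2 without the filter and 0 to 2 when a library was left out. For the interaction 2 were called, with 1 in the joint fit and 0 to 2 when a library was left out.

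Replicate numbers were not used as pairs, and whether they pair libraries in the lola-O set was not tested. With the replicate block 0 members were called in lola-F embryos, 4 in lola-null embryos, 2 in lola-O adults and 2 for the interaction. In lola-O adults the block passed 271 genes as higher and 398 as lower, against 43 and 29 without it. Crossing the numbers in the lola-null set, chosen after seeing the data, gave 4 members, 862 genes higher and 1233 lower, against 549 and 630 uncrossed.

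Leaving out a library gave log2 fold changes of lola of −0.94 to −0.56 (lola-F), −1.82 to −0.20 (lola-null) and −0.17 to 0.17 (lola-O). The cause of these changes was not tested. Members that turned follow as log2 values. In lola-F embryos yellow-f was −0.0013 with DESeq2, −0.0049 with RLE scaling, −0.19 with the length trend removed and −0.029 to 0.095 when a library was left out. For the interaction yellow-d was −0.27 in the joint fit, −0.27 without the filter, −0.13 with upper quartile scaling and −0.50 to 0.97 when a library was left out, and yellow-d2 −0.24 to 0.80. In lola-O adults yellow-b was 0.048 in the joint fit and 0.047 with upper quartile scaling; leaving out a library gave −0.18 to 0.15 for yellow-b, −0.19 to 0.055 for yellow-e, −0.76 to 0.40 for yellow-f2 and −0.041 to 0.26 for yellow-h. Between lola-O and lola-F controls yellow-h was −0.048 with the length trend removed, and yellow-f −0.38 to 0.029 when a library was left out. Between lola-O and lola-null controls y was −0.19 and yellow-d −0.19 with the length trend removed, and y −0.20 to 1.08 when a library was left out. Between lola-F and lola-null controls yellow-c was −0.078 to 0.35 when a library was left out.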

Other observations

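The files also held 4 family genes outside the set of 10. yellow-g, known with yellow-g2 from the eggshell, was at or under 0.431 CPM in every embryo library and had 9.11 and 5.54 CPM in lola-O mutants, against 12.4 and 5.77 CPM in adult controls (log2 −0.27 ± 0.39, edgeR adjusted p = 0.794). yellow-g2 and yellow-k were at or under 0.431 CPM in every library. yellow-e2, between yellow-e3 and yellow-e, had 2.13 and 7.19 CPM in lola-null mutants, against 7.61 and 7.65 CPM in controls (log2 −0.76 ± 0.56, adjusted p = 0.398), and 0.862 and 1.21 CPM in lola-O mutants, against 2.85 and 2.74 CPM in controls (log2 −1.44 ± 0.38, adjusted p = 0.146). It was lower in lola-F than in lola-null controls (log2 −1.51 ± 0.44, adjusted p = 0.0164), as was yellow-e3.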
